A study of Oryctolagus cuniculus with 6 samples.

Results

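Blocks of several neighbouring exons that are kept or left out of a transcript together were examined in rabbit skin. A block event was any entry of 4 types in the deposited transcript-event tables: a chain of exons included between exact flanking exons, the skipping of such a chain, and both forms with inexact flanks, where the flanking exon boundaries vary between transcripts. There were 3141 block events at 1107 loci, of 76612 events of 20 types at 15280 loci. Of the block events, 1239 were included chains and 1084 skipped chains with exact flanks, and 334 were included and 484 skipped chains with inexact flanks. The types alone chose the members, and no measured value did.

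The samples were skin of Oryctolagus cuniculus aged 30 days, of which 3 libraries carry the genotype label Prss53-/- and a CRISPR/Cas9 treatment label and 3 are wild type. Prss53 encodes a serine protease, and the series title links the gene to hair curvature and skeletal dysplasia. Nothing in the labels ties the libraries to separate animals, litters or lines, so p-values measure the spread between these libraries, which may be technical. The labels give neither the edited site nor whether the knockout libraries come from 1 founder. The tables hold FPKM (fragments scaled to transcript length and library size) without counts, so the depth behind each value is unknown. An event absent from a library's table was taken as 0, and an absent entry can be a transcript that was not assembled as well as one that was not made.

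A cassette exon is an exon that some mature transcripts carry and others lack, because the splicing machinery joins its neighbours directly. When several adjacent exons behave as 1 unit, the transcript gains or loses a whole stretch of coding or untranslated sequence, often a repeated protein segment in long structural genes. The reading frame downstream is kept only where the summed length of the exons is divisible by 3, so 2 exons that each shift the frame can restore it together. In skin, many matrix and cell-adhesion genes carry long runs of small exons of this kind. The gene symbols behind the loci were not assigned here, so blocks are given by chromosome and by position as in the files, whose genome build is not given in the sources used here; the targeted gene was for the same reason not looked up in the libraries.

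Most blocks were pairs of exons. Of the 1239 included chains with exact flanks, 838 had 2 exons (67.6%), 200 had 3 (16.1%) and 201 had 4 or more (16.2%). There were 22 chains of 10 or more exons, and the longest had 23. The mean was 2.85 exons per chain with exact flanks and 2.67 with inexact flanks, where the longest had 18. Exons inside blocks were ordinary in size. Over 1975 distinct exons the median was 112 bases with an interquartile range of 77 to 165, against a median of 110 bases over 5300 single cassette exons. Summed over their exons, the chains had a median of 287 bases, and the genomic span from the first to the last exon had a median of 3333 bases, ranging from 193 to 212441.

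The exons of a block shifted the frame more often singly than together. Of the single exons inside blocks, 47.4% had a length divisible by 3, close to the 49.2% of single cassette exons. Of whole chains, each counted even where chains shared exons, 56.5% did. Among the 838 pairs, both exons were divisible by 3 in 233 (27.8%), 1 of them in 281 (33.5%) and neither in 324 (38.7%). Of the 324 pairs in which neither exon kept the frame alone, 200 (61.7%) kept it together. The share expected if the lengths of the 2 exons were unrelated was not computed. By exon number the share of chains divisible by 3 was 51.7% for 2 exons, 56.5% for 3 and 76.6% for 4 or more. That rise rested in part on a few loci with many chains: the 201 long chains came from 58 loci, and 105 of them, at 18 loci, had every exon divisible by 3. With 1 chain per locus the shares were 50.4% over 583 chains, 52.0% over 127 and 58.6% over 58.

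**Figure D1:**
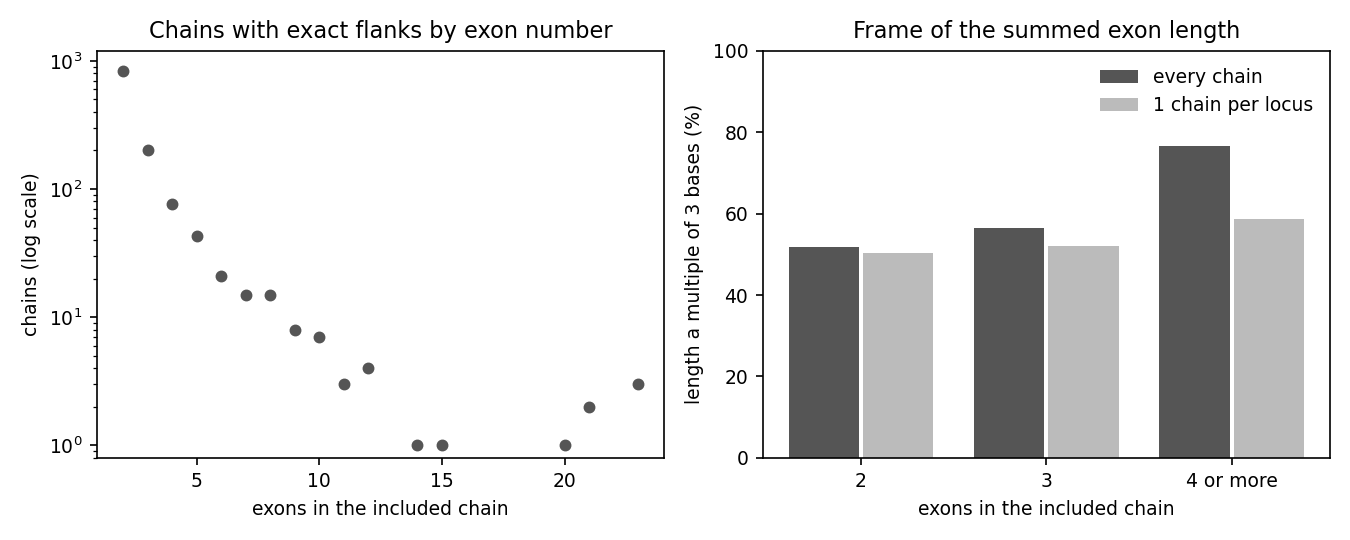
Left, the number of included chains with exact flanks (log axis) against the number of exons in the chain; right, the share of chains (percent) whose summed exon length is divisible by 3, for every chain (dark bars) and for 1 chain per locus (light bars). Chains of 2 exons are the largest class with 838, and the 76.6% of chains of 4 or more exons falls to 58.6% with 1 chain per locus.

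Block events were unevenly spread over the loci. A single block event was found at 406 loci, whereas 30 loci with 10 or more held 759 of them. The most crowded locus, on an unplaced scaffold, held 110 block events at a summed locus level between 8.01 and 19.6 FPKM per library. The locus level is the larger of the summed first-exon, summed last-exon and highest single event levels. Of the crowded loci on numbered chromosomes, 1 on the minus strand of chromosome 7 (118224472 to 118496336) held 55 block events and 1 on the minus strand of chromosome 12 (20836433 to 20898079) held 38. Unplaced scaffolds carried 30.8% of block events and 28.3% of all events.

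Chains of equal-length exons were common at a locus on the minus strand of chromosome 7 (90491023 to 90707337). It held 47 block events, 38 of them included chains. In 35 of the 38 chains all exons of the chain had the same length. Its chains drew on 30 distinct exons, every one divisible by 3, and 11 of them were 93 bases long. Over the whole series 120 chains at 19 loci had exons of 1 length only. The exon sequences were not compared. Where exons of equal length are also alike in sequence, reads can be assigned to more than one of them, and the levels of single chains are then uncertain.

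Many of the chains were also broken up in other transcripts. In 591 of the 1239 chains (47.7%) all exons were also listed as single skipped exons, in 287 (23.2%) some were, and in 361 (29.1%) none was. Whether the exons of the 361 also lay in other chains was not counted. An intron shorter than 50 bases lay inside 4 exact-flank chains (0.323%) but inside 16 of the inexact-flank chains (4.79%), against 4 single-exon events (0.0721%). Of the inexact-flank events, 72 included (21.6%) and 77 skipped (15.9%) repeated the exon pattern of an exact-flank event.

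Block events were listed less regularly than other events. All 6 libraries listed 829 of them (26.4%), against 38.6% of the 13651 single-exon events and 41.9% of all events. A single library listed 1246 (39.7%), against 28.9% of single-exon events and 29.6% of all events. All 6 libraries listed 38.2% of skipped but 7.78% of included inexact-flank chains, and a single one listed 26.9% and 67.4%. For exact flanks all 6 listed 27.2% of included and 25.9% of skipped chains. The median level of block events where listed was 2.57 FPKM, against 3.78 over all events, and it ranged from 0.0157 to 837 FPKM. The knockout libraries listed 1552, 1666 and 1542 block events and the wild-type libraries 1530, 1666 and 1595, so the groups overlapped. Neither the listed number of any of the 4 types nor the mean exon number per listed chain, 2.69 ± 0.158 over the knockout and 2.70 ± 0.0201 over the wild-type libraries (SD, n = 3), separated the genotypes (exact two-sided permutation tests, p between 0.7 and 1, where 3 against 3 libraries cannot go below 0.1).

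Knockout replicate 3 stood somewhat apart. Over all events its log2 levels correlated with the other knockout libraries at Pearson r = 0.797 and 0.815, whereas the other within-genotype pairs lay between 0.871 and 0.878. Over the block events its values were 0.727 and 0.691, and the other pairs lay between 0.731 and 0.840. These values are across events, which are not independent replicates.

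To set the included form against the skipped form, chains with exact flanks were grouped by their pair of flanking positions. Of 1124 pairs of flanks, 774 had both forms listed in some library, 310 had the skipped form only and 40 the included form only. Of the 310, 73 had an included form with 1 exon between the same flanks. A single chain stood against the skipped form in 558 of the 774, several in 216, and up to 15. Inexact-flank events, matched by overlap within a locus, gave 88 groups. Where several chains lay between 1 pair of flanks their FPKM were added, which can count a transcript more than once: in 43 of the 774 pairs, 38 of them with several chains, both forms together came to over 1% above the locus level in some library. The same held for 9 of the 88 inexact-flank groups.

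The included share is the included form's part of the FPKM of both forms. It was tested for 408 of 862 matched blocks, those whose forms summed to no less than 1 FPKM in each of the 6 libraries, 376 with exact and 32 with inexact flanks, at 341 loci. Among the tested exact-flank blocks, shares over 90% were more common than shares under 10%. Of the 376, 169 (44.9%) had a mean share over 90%, 146 (38.8%) lay between 10% and 90%, and 61 (16.2%) were under 10%. For 3217 single exons tested the same way the classes held 33.3%, 42.0% and 24.7%. Pairs of flanks with 1 form only, 310 skipped and 40 included, have no matched share and lie outside these classes. In 31 of the tested exact-flank blocks the summed forms lay above the locus level. How far either of these shifts the shares was not tested. Both forms were listed in all 6 libraries for 72 of the 408 blocks (17.6%), against 21.1% of single exons.

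The mean share over exact-flank blocks was 63.9%, 65.0% and 62.1% in the knockout libraries and 65.9%, 65.7% and 64.7% in the wild-type libraries. The means were 63.7% ± 1.42 and 65.4% ± 0.655 (SD, n = 3), and the groups overlapped (exact two-sided permutation test, p = 0.2, adjusted p = 0.44 over 11 per-library measures). For single exons the mean lay between 53.3% and 54.1% in every library. The tested exact-flank blocks were thus included 10.9 percentage points more than the tested single exons on average, by 8.67 to 12.3 points in the 6 libraries. The difference was above 0 in 6 of 6 libraries (exact two-sided sign-flip test over libraries, p = 0.031, the smallest it can give, adjusted p = 0.031 over the pair of such tests). Every library measures the same blocks and exons, so the p-value leaves out the spread over blocks and exons. The 32 inexact-flank blocks lay closer to single exons, with a mean share of 57.1%, 56.3% and 55.3% in knockout and 55.2%, 56.1% and 53.2% in wild type. The exact-flank difference was 10.4, 10.9 and 8.67 points in knockout and 12.3, 11.7 and 11.4 in wild type, without overlap, with an exact permutation p of 0.1, the smallest possible, and an adjusted p of 0.44.

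Blocks of 3 exons had the highest mean share by exon number. Over 312 blocks whose main chain had 2 exons the mean share was 63.5%, over 35 blocks of 3 exons 73.5% and over 29 blocks of 4 or more exons 65.0%. Blocks of 3 or more exons together had 69.7%, and pairs lay 6.19 points lower, by 4.13 to 8.82 points in 6 of 6 libraries (exact two-sided sign-flip test, p = 0.031, adjusted p = 0.031). The gap to pairs was larger for the blocks of 3 exons than for those of 4 or more. Blocks of 4 or more lay at 63.4% and 61.0% in knockout replicates 2 and 3 and at 63.8% in wild-type replicate 3, where pairs had 64.1%, 61.4% and 63.7%. In knockout replicate 1 and wild-type replicates 1 and 2 they lay at 65.3%, 68.4% and 68.3%, where pairs had 62.9%, 64.5% and 64.2%. With at least 5 FPKM for both forms the mean difference was -1.10 points (exact two-sided sign-flip test, p = 0.0625). These p-values also leave out the spread over blocks, since every library measures the same ones.

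**Figure D2:**
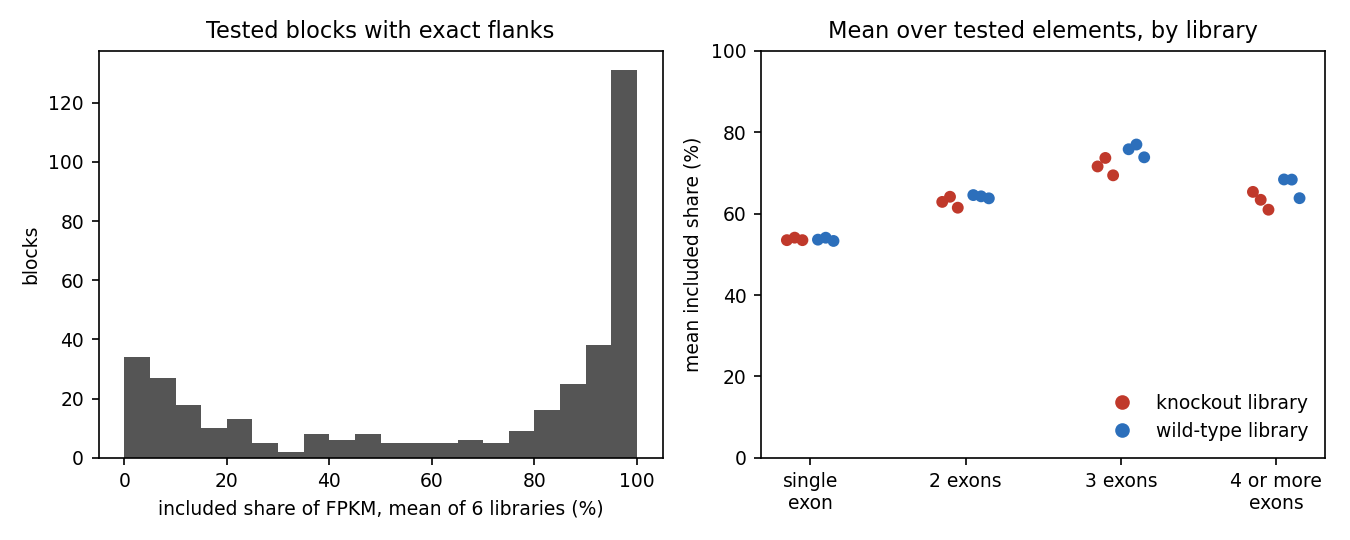
Left, the number of tested exact-flank blocks by included share of FPKM (percent, mean of 6 libraries); right, the mean included share in each library (percent; red knockout, blue wild type) over single exons and over blocks of 2, 3 and 4 or more exons. Every library has its exact-flank blocks above its single exons, which lie between 53.3% and 54.1%.

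Blocks of intermediate share kept the frame more often than the others. The main chain was divisible by 3 in 70.5% of the 146 blocks included between 10% and 90%, against 53.8% of the 169 above and 59.0% of the 61 below. Single exons had the same order, with 62.8%, 42.5% and 51.1%. These are counts over elements, which share loci, and carry no test.

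The most abundant of the tested blocks showed how much the share could vary between libraries of 1 genotype. The highest level belonged to an inexact-flank block of 2 exons (87 and 168 bases) on chromosome 19 (42090242 to 42096352, plus strand). Both forms together stood at 1004, 674 and 1023 FPKM in knockout and 639, 326 and 355 in wild type, and the included share was 6.82%, 0% and 38.0% against 0%, 21.1% and 0%. The skipped form dominated in every library, and the groups overlapped in share. The main chain ends at 42096352 and its flanking exon boundary lies at 42096398, which leaves an intron shorter than 50 bases. Whether that intron is spliced was not tested, so this share may not measure inclusion of the chain.

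The second in level, an exact-flank pair of 84 and 78 bases on an unplaced scaffold (561063 to 561599), had shares of 53.7%, 39.7% and 75.1% in knockout and 75.0%, 61.2% and 67.2% in wild type. Both forms together came to 126, 99.1 and 12.5 FPKM against 186, 179 and 182. Knockout replicate 3 held the lowest level and the highest share of the 6. A pair of 135 and 152 bases on chromosome 2 (157291281 to 157296182, minus strand) was fully included in 5 libraries and at 88.9% in wild-type replicate 2, where alone the skipped form was listed. An inexact-flank block of 54 chains on an unplaced scaffold (1787812 to 1788578, minus strand) had 46.2%, 57.0% and 67.1% in knockout and 69.2%, 37.7% and 61.8% in wild type. Its forms together, at 69.4 to 97.5 FPKM, lay above the locus level of 30.0 to 52.1 FPKM in every library, which counts some transcripts more than once. In the chromosome 7 locus with equal-length exons, a block whose main chain was 2 exons of 93 bases (90500925 to 90501801) had shares of 62.7%, 85.6% and 0% in knockout and 51.8%, 23.0% and 32.1% in wild type, so that the knockout libraries enclosed the wild-type ones. Its forms together came to 38.4 and 69.8 FPKM in knockout replicates 1 and 2, above the locus level of 33.1 and 49.1 FPKM. In wild-type replicate 1 they came to 68.3 against 66.9 FPKM. Such sums count some transcripts more than once.

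Of the 4 blocks with the most exons, 1 was nearly always included and the others were mostly skipped in most libraries. A block of 23 exons and 3405 bases on chromosome 5 (14420928 to 14453080, minus strand) was included at 100% in 5 libraries and at 93.2% in knockout replicate 3, the only one to list the skipped form, at 1.42 FPKM. Its 3 chains, which differ by a few bases, add up above the locus level. A block of 12 exons on chromosome 14 (23938327 to 23970004, minus strand) held 693 bases in exons of 42 to 90 bases, each divisible by 3. Its share was 0%, 28.8% and 0% in knockout and 18.0%, 21.0% and 0% in wild type, and its skipped form was listed in all 6 libraries at 4.69 to 9.45 FPKM.

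Another block of 12 exons, with 4719 bases, lay on chromosome 5 (29134729 to 29171332, minus strand) and had shares of 15.1%, 0% and 0% against 60.4%, 0% and 32.6%. A block of 9 exons on an unplaced scaffold (692900 to 715738, plus strand) had exons of 18 to 84 bases, all divisible by 3, and both forms in every library. Its share was 9.17%, 34.1% and 7.36% in knockout and 17.6%, 29.2% and 15.6% in wild type. In none of these 4 long blocks were the genotypes apart beyond the spread of the libraries (limma, Benjamini-Hochberg adjusted p between 0.695 and 0.877).

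Among the 72 blocks with both forms everywhere, those nearest to an even mix varied widely. A 2-exon block of 591 and 178 bases on chromosome 12 (22610710 to 22611970, plus strand) had 58.4%, 64.9% and 30.8% in knockout and 55.3%, 44.6% and 48.3% in wild type. On the same chromosome a pair of 60 and 48 bases (138523996 to 138524205, plus strand) had 60.8%, 49.0% and 32.0% against 49.7%, 65.9% and 58.7%. A 3-exon block on chromosome 7 (169131183 to 169137333, plus strand) had 44.2%, 51.0% and 89.0% against 47.2%, 45.8% and 37.0%. In each of the 3 blocks the knockout replicate 3 value was the farthest from the rest of its group.

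The other blocks near an even mix were an inexact-flank pair on chromosome 18 (60774244 to 60775624), with 48.3%, 34.0% and 65.4% against 45.7%, 46.6% and 43.2%, and 2 pairs on unplaced scaffolds whose 6-library values lay between 36.2% and 78.1% and between 15.4% and 75.0%. Over the 72 blocks the gap between the highest and lowest of 6 libraries ran from 3.78 to 59.6 points with a median of 26.4. The median SD within a genotype was 8.77 points, against 7.36 for 678 single exons with both forms in all libraries.

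The genotypes were compared over 16485 elements of 6 kinds (single exons, both kinds of block, introns, first and last exons), fitted together. Of the 408 blocks 1 passed an adjusted p of 0.05 (0.245%), against 0.643% of all elements, and 16 single exons did. The block was lower in knockout, as were 0.352% of all elements at that threshold. At an unadjusted p under 0.05 there were 22 blocks (5.39%), against 6.50% of all elements. The median size of the difference was 5.45 points for blocks and 5.58 for all elements. Block shares lay slightly lower in knockout, with 228 lower and 180 higher and a median difference of -1.80 points, against -0.24 over all elements.

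Groups did not overlap for 24 blocks (5.88%), against 8.76% of all elements. In 17 of the 24 the knockout libraries were lower and in 7 higher, where over all elements 4.56% were lower and 4.2% higher. In 9 of the 24 a form was missing from every library of 1 genotype, and in 6 both forms were listed in all 6 libraries. The largest differences in each direction were among blocks with a form missing somewhere; they were picked after their values were seen. On chromosome 12, a block of 3 exons (149144617 to 149147509, plus strand) had shares of 0%, 16.5% and 0% in knockout and 57.0%, 37.4% and 62.0% in wild type (limma, -46.6 points, SE 8.29, adjusted p = 0.126). On the same chromosome, a pair of 81-base exons (57472590 to 57478959, plus strand) had 65.3%, 52.9% and 100% in knockout and 40.3%, 33.1% and 27.5% in wild type (limma, 39.1 points, SE 12.6, adjusted p = 0.507). The first block was thus mostly skipped in knockout and the second mostly included there, and neither passed.

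**Figure D3:**
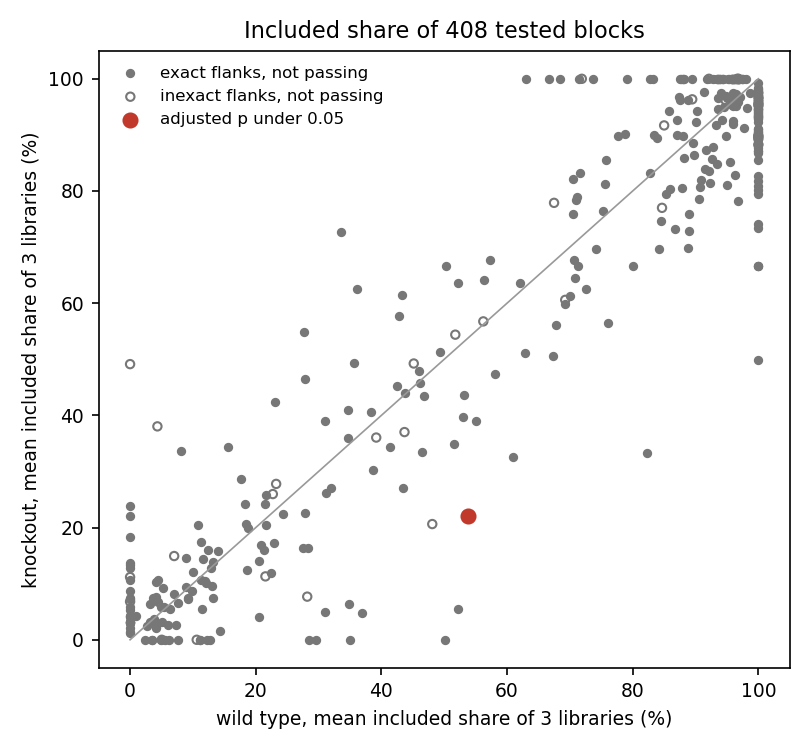
Each point is 1 of the 408 tested blocks, with its mean included share over 3 wild-type libraries (x, percent) and over 3 knockout libraries (y, percent); the grey line marks equal shares. The red point is the block that passed the test, at 22.1% in knockout and 53.8% in wild type; points at 0% or 100% on an axis have 1 form missing from every library of that genotype.

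The block that passed lay on the plus strand of chromosome 12 (114637647 to 114640744), in the locus the files pair with ENSOCUG00000011858, between flanking exon boundaries at 114632613 and 114645747. Its main chain of 4 was a pair of 39 and 61 bases, 100 in all, which is not divisible by 3. The included share was 18.0%, 21.0% and 27.5% in knockout and 52.5%, 52.6% and 56.4% in wild type. Every knockout library lay below every wild-type library, and the mean was 31.7 points lower in knockout (SE 3.77, n = 3 per group, limma adjusted p = 0.0376).

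Taken singly, neither form separated the genotypes. The included form stood at 3.00, 3.06 and 1.63 FPKM in knockout and 5.57, 1.49 and 2.00 in wild type, overlapping. The skipped form stood at 13.7, 11.6 and 4.30 FPKM against 5.05, 1.34 and 1.55, where the lowest knockout value lies below the highest wild-type one. The whole locus had 29.7, 26.5 and 15.7 FPKM in knockout and 22.1, 8.56 and 10.4 in wild type. The call held in 1 of the 6 fits that leave out a library, the one without knockout replicate 3 (adjusted p = 0.0223), and the largest adjusted p of the others was 0.0881. Adding the inclusions of 1 of its exons to the included form left a difference of -17.3 points (limma adjusted p = 0.265).

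Of the other 5 blocks without overlap that listed both forms in all 6 libraries, the 4 with the largest differences were lower in knockout. An inexact-flank block on the minus strand of chromosome 12 (20850417 to 20858811), of 16 chains at the crowded locus named above, had 24.8%, 20.2% and 16.8% in knockout and 36.8%, 52.7% and 54.9% in wild type (limma, -27.5 points, SE 5.86, adjusted p = 0.204). Its forms together came to 19.0, 11.7 and 10.9 FPKM in knockout and 7.85, 35.0 and 20.7 in wild type, above the locus level of 8.96, 6.31 and 7.08 FPKM against 9.41, 22.4 and 13.98 in 5 of 6 libraries, and a sum above the locus level counts some transcripts more than once. A pair of 120 and 129 bases on chromosome 1 (174505266 to 174507555, plus strand) had 45.8%, 43.4% and 27.7% against 54.9%, 55.3% and 55.2% (limma, -16.2 points, SE 5.49, adjusted p = 0.572). The wild-type libraries of that pair lay within 1 point of one another, and knockout replicate 3 was the lowest.

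An 8-exon block of 1665 bases on chromosome 2 (30738495 to 30757398, plus strand) had 80.8%, 78.5% and 68.6% against 87.4%, 92.9% and 86.4% (limma adjusted p = 0.588). A pair of 102 and 45 bases on an unplaced scaffold (421266 to 430948, minus strand) had 77.2%, 82.4% and 64.5% against 82.9%, 84.2% and 86.5% (limma adjusted p = 0.695). In all 4 blocks the lowest share of the 6 libraries was that of knockout replicate 3. Without it the differences were -25.6 points for the chromosome 12 block, -10.5 for chromosome 1 (limma adjusted p = 0.0681), -9.23 for chromosome 2 and -4.73 for the scaffold.

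**Figure D4:**
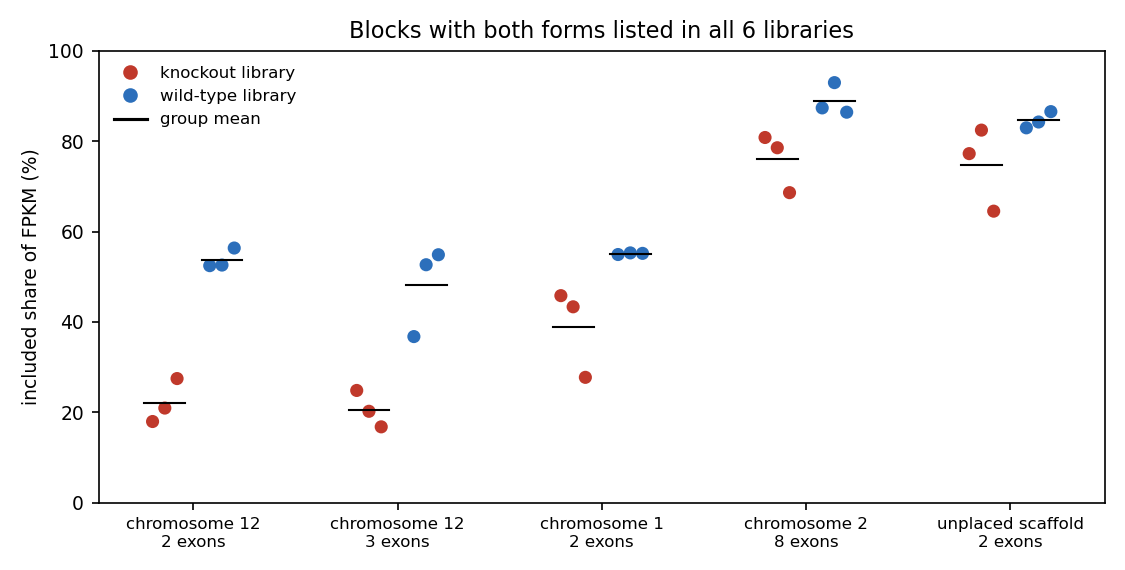
Included share of FPKM (percent) in each library for the block that passed the test (first column) and 4 uncalled blocks without overlap, the ones with the largest differences among those listing both forms in all 6 libraries; red points are knockout and blue points wild-type libraries, and black lines are group means. The first block has 18.0% to 27.5% in knockout and 52.5% to 56.4% in wild type.

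The level of each form was also compared on its own. On log2(FPKM + 1), 1155 block events (36.8%) reached 1 FPKM in at least 3 libraries and were fitted with 37917 events of all types; fold changes on this scale understate those of low events. Of the 1155, 35 passed an adjusted p of 0.05 (3.03%), against 2.06% of all events. In knockout 17 were higher (1.47%, against 0.997% of all events) and 18 lower (1.56%, against 1.06%). They came from 29 loci and held 31 distinct profiles of levels, the rest repeating the levels of another called event. The higher events were 5 included and 3 skipped chains with exact flanks and 2 included and 7 skipped with inexact flanks. The lower ones were 8, 7, 1 and 2 in the same order.

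Most of these calls are no test of a difference. Of the 17 higher, 12 were missing from every wild-type library, and of the 18 lower, 17 were missing from every knockout library. Such events, 38 in all among the 1155, reached 1 FPKM in 3 libraries only through the genotype that lists them, so their separation was fixed by that minimum, and their levels are given below without p-values. The level of the whole locus differed the same way without overlap for 21 of the 35, the opposite way for 2, and overlapped for 12. Leaving out any 1 library left 5 to 17 calls. In bulk tissue, fewer cells of a type and less RNA per cell cannot be told apart.

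Of 793 block events listed in all 6 libraries, 5 passed, each higher in knockout (0.631%, against 0.37% of all events so listed). On the plus strand of chromosome 9, the transcript skipping the block from 103782505 to 103783240 stood at 8.52, 10.1 and 6.87 FPKM in knockout and 1.76, 1.81 and 1.81 in wild type. The log2 difference was 1.75 (SE 0.19, limma adjusted p = 0.00856), while its locus, at 19.8, 12.9 and 14.9 FPKM against 17.2, 15.8 and 15.8, overlapped between the genotypes. Of the 6 tables, 3 held the included form: knockout replicate 1 with 1.41 FPKM, wild-type replicate 1 with 1.70 FPKM and wild-type replicate 2 with 2.91 FPKM. The call held without 2 of the 6 libraries in turn.

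A pair of 84 and 91 bases on chromosome 12 (25640111 to 25642525, minus strand) was included at 7.28, 6.89 and 7.06 FPKM in knockout and 2.59, 2.04 and 2.36 in wild type (log2 difference 1.28, SE 0.16, limma adjusted p = 0.0151). It made up the whole locus in every library except knockout replicate 3, where the skipped form was listed at 1.20 FPKM, so the locus rose with it. A chain of 3 exons of 104, 176 and 191 bases on chromosome 17 (40936349 to 40937053, plus strand) had 15.2, 23.3 and 16.6 FPKM against 4.46, 6.91 and 3.29 (log2 difference 1.74, SE 0.28, limma adjusted p = 0.0365). Its locus, at 15.2, 23.3 and 21.8 FPKM against 5.28, 6.91 and 4.10, was higher in knockout with it. In a fit of events listed in all 6 libraries alone its adjusted p was 0.0606 (limma).

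The other 2 lay on unplaced scaffolds. A skipped form (1784707 to 1786059, plus strand) stood at 13.6, 17.3 and 22.4 FPKM in knockout and 6.49, 4.09 and 3.92 in wild type (limma adjusted p = 0.0300), at a locus whose level overlapped, from 67.2 to 85.6 FPKM. It was not the only skipped form of its block. The skipped forms of that block summed to 22.8 to 29.8 FPKM in knockout and 22.5 to 38.5 in wild type, overlapping. Its included forms came to 15.3, 18.3 and 15.4 FPKM in knockout and 3.37, 0 and 0 in wild type. The higher skipped level thus held for this form and not for the skipped forms together. An included chain of 246 and 19 bases (374541 to 376362, minus strand) stood at 113, 91.4 and 149 FPKM against 38.5, 28.6 and 41.0 (limma adjusted p = 0.0226). Its skipped form was listed in the knockout libraries only, at 12.3, 11.6 and 16.3 FPKM. The included form was higher in knockout and the skipped form was listed there alone, and the included share was 90.2%, 88.7% and 90.1% there against 100% in each wild-type library. That chain ends at 376362 and its flanking exon boundary lies at 376384, which leaves an intron shorter than 50 bases. Whether so short an intron is spliced was not tested, so this share may not measure inclusion of the chain. Leaving out each library in turn, the call on chromosome 12 held in 1 of 6 fits, and the calls on chromosome 17 and on the 2 scaffolds (included chain and first skipped form) in 0 of 6.

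**Figure D5:**
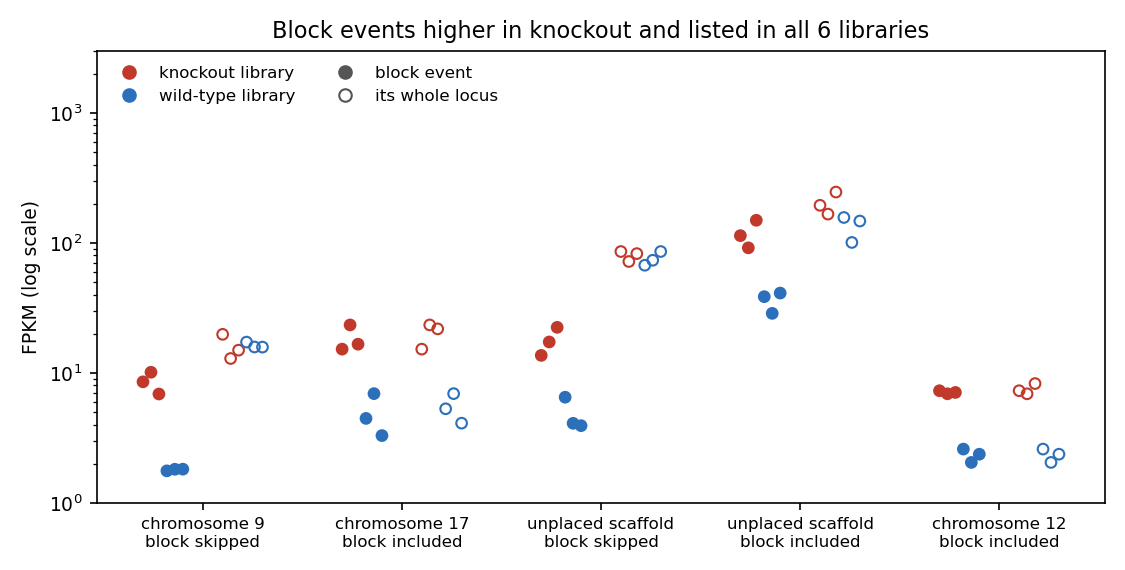
FPKM (log axis) of the 5 block events higher in knockout and listed in all 6 libraries (filled points) beside the level of their whole locus (open points), red for knockout and blue for wild-type libraries. The locus levels overlap between genotypes on chromosome 9 and on the first scaffold. They are higher in knockout with the event on chromosomes 17 and 12 and on the second scaffold.

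The events listed in knockout only had their highest levels at 1 place on chromosome 13. A skipped inexact-flank block on the minus strand (39475203 to 39475673) stood at 73.8, 110 and 146 FPKM in knockout and was in no wild-type table. A longer skip with the same end (39475131 to 39475673) stood at 8.34, 22.7 and 229 FPKM, again in knockout only. On the plus strand, an overlapping skip (39475077 to 39475333) stood at 68.6, 54.5 and 129 FPKM, in knockout only.

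The files pair the loci of both strands with the same Ensembl gene, and without a stated strand-specific library, reads of the overlapping strands cannot be told apart. The level of the minus-strand locus was 267, 235 and 986 FPKM in knockout and 77.8, 45.8 and 76.2 in wild type. That of the plus-strand locus was 88.1, 102 and 129 against 4.98, 0.55 and 1.03. Both loci were higher in each knockout library than in any wild-type library. The minus-strand locus was also listed in wild type, at 45.8 to 77.8 FPKM, where its skipped forms named here were not.

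Of the events listed in wild type only, the highest was a skipped inexact-flank block on chromosome 19 (9105861 to 9164555, minus strand), at 48.1, 108 and 80.8 FPKM. Its locus stood at 180, 223 and 107 FPKM in wild type and was listed in knockout replicate 3 alone, at 26.2 FPKM. The whole locus was thus missing from 2 of the 3 knockout tables.

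The chromosome 7 locus with equal-length exons had 2 such skipped forms. The skip of 90500925 to 90510276 had levels of 9.20, 18.0 and 9.65 FPKM. The skip of 90608295 to 90615098 had levels of 8.14, 18.5 and 8.55 FPKM. The included form of the first block stood at 18.8, 39.0 and 0 FPKM in knockout and 24.8, 17.1 and 13.1 in wild type. That of the second block stood at 25.2, 44.8 and 14.7 FPKM in knockout and 36.7, 57.0 and 34.0 in wild type. The locus level was 33.1, 49.1 and 21.1 FPKM in knockout and 66.9, 92.4 and 50.5 in wild type, lower in knockout without overlap. The skipped forms were missing in knockout, while the groups overlapped for the included form of each block.

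A pair of 128 and 79 bases on an unplaced scaffold (2283907 to 2284225, plus strand) was included at 9.21, 8.30 and 8.03 FPKM in wild type and listed in no knockout library. The skipped form was listed in knockout only, at 5.24 and 2.13 FPKM in replicates 1 and 2. The locus level overlapped, with 9.50, 10.6 and 8.42 FPKM in knockout and 9.21, 8.30 and 8.03 in wild type. Knockout replicate 3 listed neither form of the block, and in replicates 1 and 2 the skipped form lay below the locus level. The values thus do not show a change from the included to the skipped form.

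On the minus strand of chromosome 12, 3 events with 1 profile of 6.55, 9.18 and 5.60 FPKM in wild type and none in knockout have the levels of a single transcript. They were inclusions of 3 exons (122566879 to 122569856) and 2 exons (122613391 to 122613768) and a skip of the block between them (122576416 to 122610383). The first block's skipped form was listed in knockout only, at 2.39, 3.56 and 0.73 FPKM. The locus stood at 13.1, 10.8 and 9.72 FPKM in knockout and 47.0, 34.2 and 37.4 in wild type, without overlap.

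On chromosome 2 (67664114 to 67668200, minus strand) a pair of 57 and 165 bases was included at 0.957 and 0.999 FPKM in knockout replicates 1 and 2. It was not listed in replicate 3, and stood at 7.07, 8.83 and 9.66 FPKM in wild type (log2 difference -2.59, SE 0.32). Like the events missing from 1 genotype, it reached 1 FPKM in 3 libraries only through wild type, so its p-value is not given. The skipped form stood at 4.64, 3.81 and 0.44 FPKM against 3.71, 5.96 and 2.66, overlapping, and the locus at 9.83, 7.56 and 2.84 against 12.7, 14.8 and 12.3. The included form was lower in each knockout library than in any wild-type library while the skipped form was not. With both forms under 1 FPKM in knockout replicate 3, its share was not tested.

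In all, 31 block events at 27 loci were listed in every knockout and no wild-type library (0.987%, against 0.817% of all events). The reverse held for 41 at 32 loci (1.31%, against 1.04% of all events). The knockout-only events were 9 included (0.726% of that type) and 12 skipped chains (1.11%) with exact flanks and 10 skipped with inexact flanks (2.07%). The wild-type-only ones were 18 and 13 with exact flanks, and 5 and 5 with inexact flanks. Counting an event as listed only at 5 FPKM or more, the number for knockout was 10 of 883 (1.13%, against 1.10% of all events). For wild type it was 20 of 883 (2.27%, against 1.55% of all events).

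Summed over the 774 matched exact-flank blocks, the included forms came to 2757, 3228 and 2052 FPKM in knockout and 3000, 3383 and 2949 in wild type, overlapping (exact two-sided permutation test, p = 0.4). The mean difference of -432 FPKM was -118 without knockout replicate 3 and -706 without knockout replicate 2. The skipped forms came to 1740, 1726 and 1534 FPKM against 1910, 1959 and 1837, lower in each knockout library than in any wild-type library. The exact permutation p was 0.1, the smallest that 3 against 3 libraries allow, and 0.44 after adjustment over the 11 per-library measures. Over the block events tested on level the median log2 difference was -0.14, against -0.08 over all events tested, and 203 block events (17.6%) had an unadjusted p under 0.05, against 14.6% of all events.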

How the data were processed

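RNA-seq of rabbit skin was compared between 3 knockout and 3 wild-type libraries, grouped by the genotype label. The authors deposited 1 table of transcript events per library, whose values are FPKM per event, as the header names them; no counts or depths are given. Tools named by the submitters' processing notes are cutadapt and bcl2fastq (version 2.17.1.14); for aligner, assembler, event caller and build, the entry is: not given in the sources used here. Libraries were prepared from total RNA with a NEBNext Ultra RNA kit, per the labels' protocols.

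From these files, 11629 block entries became 9551 at 1 per event and library. Exact-flank forms were matched by their flanking positions within a locus, inexact ones by overlap. Included shares were fitted with limma 3.58.1 (R 4.3.3) over 16485 elements with at least 1 FPKM in every library, and log2(FPKM + 1) with limma's trend over 37917 events at 1 FPKM in at least 3 libraries, with Benjamini-Hochberg adjustment; the code was tested on simulated data. Per-library measures were compared by exact two-sided tests (Python 3.11.15).

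Blocks were named by rule: those passing the share test; up to 8 called events per direction, those listed in all libraries first; the 6 most abundant, 4 longest and 6 most evenly mixed tested blocks; the 4 highest events listed in 1 genotype only, per direction; and, of uncalled blocks listing both forms in all libraries, the 4 with the largest difference without overlap. The chromosome 7 and other crowded loci were chosen after their values were seen. Members, lists and rules were chosen with earlier results of these data known. Gene lists of matrix, epidermis, hair follicle, muscle and splicing genes, meant also as tissue markers, were not applied, since the reference table used here (assembly mOryCun1.1) holds no Ensembl identifiers. No sequence is shown.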

Additional observations from a re-analysis of the deposited data

How the results depend on the processing

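With 3 libraries a group and no depth, these data limit calls on rare blocks most. The shares of the block that passed and of the uncalled blocks shown beside it kept their direction in every alternative run that fitted them. So did the levels of the named called events. For events missing from every library of 1 genotype the direction could not change. The other named blocks and events were not followed through the alternative runs. The call of the chromosome 12 block ended in most alternatives: 0 blocks passed under limma with 1 block per exact chain (adjusted p of that block 0.0710; 25 blocks at an unadjusted p under 0.05), with single-exon inclusions added (37), with adjustment over exons and blocks alone (22), and with the highest chain alone (22), an alternative added after summed chains above the locus level were seen. At a minimum of 5 FPKM 1 block passed, higher in knockout, and 0 lower; at 0.1 FPKM 4 passed, 1 higher and 3 lower, the chromosome 12 block among them (adjusted p = 0.0427). On the log2 ratio of the forms 4 passed, 1 higher and 3 lower, but that block did not (adjusted p = 0.636). Leaving out each library in turn gave 1 to 6 called blocks (0 to 2 higher, 0 to 5 lower). The 6 came without knockout replicate 3, and 3 without wild-type replicate 2.

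Called event levels fell from 35 to 18 with no filter (8 higher, 10 lower), to 10 at a mean of at least 5 FPKM (7 higher, 3 lower), and to 5 among events listed in all 6 libraries (5 higher, 0 lower). The last 5 came from a fit of those events alone and did not include the chromosome 17 chain (limma adjusted p = 0.0606). They are thus not all the same as the 5 described above. Leaving out 1 library gave 5 to 17 calls: 0 to 7 higher and 0 to 16 lower. With a knockout library left out, 9 to 17 were called, 0 to 2 of them higher; with a wild-type library left out, 5 to 7, 0 or 1 of them lower. Events under 1 FPKM throughout 1 genotype could be fitted only without a library of that genotype, since 3 libraries must reach 1 FPKM, and such fits say nothing of their stability; the chromosome 2 pair passed in 2 of 3. Library quality weights gave 46 and a pseudocount of 0.1 FPKM gave 34. Events listed in 1 genotype only numbered 38 to 78 (knockout) and 50 to 90 (wild type) without 1 library, the 78 without knockout replicate 3. With 1 FPKM as the line between listed and not, there were 19 for knockout (0.871%, against 0.897% of all events) and 30 for wild type (1.37%, against 1.21%). With 5 FPKM there were 10 (1.13%, against 1.10%) and 20 (2.27%, against 1.55%).

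The libraries were not treated as pairs in the main fits. Deviations of same-numbered libraries correlated at 0.00285, 0.0364 and 0.0211 for shares and at -0.00645, 0.0878 and 0.0341 for levels. Libraries of other numbers correlated at -0.0311 to 0.0100 for shares and at -0.0730 to 0.0377 for levels. Not every library correlated best with its own number, and whether the numbers mark pairs is not settled. With the replicate number as a block, limma called 0 shares (0 lower; 20 at an unadjusted p under 0.05) and 13 event levels (6 higher, 7 lower).

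Blocks exceeded single exons by 10.4 to 11.0 points, and pairs lay below longer blocks by -7.90 to -6.14 points, without 1 library, where 5 libraries cannot give p under 0.0625; at a minimum of 5 FPKM the latter was -1.10. Knockout minus wild-type differences that changed sign without 1 library were those in listed included chains (-42.8 to 24.7), skipped chains (-7.83 to 11.2), inexact included chains (-10.0 to 4.0) and inexact skipped chains (-14.0 to 0.5), in exons per chain (-0.0988 to 0.0469) and in the mean share of inexact-flank blocks (-0.228 to 2.83 points), which was -4.81 at 0.1 FPKM. The causes of these changes were not tested.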
